A study of Mus musculus with 6 samples.

Results

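Of 17190 RUNX1-bound regions found in both libraries made 6 h after hCG, 5242 were narrow regions at the end of a single protein-coding gene with no peak called in either library made before hCG. They were selected on the measured peak calls, in these steps. Peaks of the 6 h libraries that shared at least 1 bp were merged, and merged regions with a peak of both libraries were kept. Of these, 14355 overlapped no peak of either 0 h library, and 14277 of those were under 2000 bp wide. A region was a member when its summit, the position of the strongest signal, lay within 1000 bp of an end of exactly 1 protein-coding gene in the GRCm38 RefSeq table. Genes of other types were not counted, and 861 members (16.4%) also had an end of such a gene within 1000 bp. A further 995 regions had the ends of 2 or more coding genes in reach, and 8040 had none. The 5242 members belonged to 4800 of 21900 protein-coding genes (21.9%). The presence of a peak at 6 h and its absence at 0 h are therefore the selection itself, and they are given below as a description with no test.

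The data came from chromatin immunoprecipitation with a RUNX1 antibody followed by sequencing (ChIP-seq) of mouse granulosa cells. The mice were CBA x C57BL/6 F1 animals 21 days old. Per the labels, they received 5 IU of eCG, equine chorionic gonadotropin, which makes follicles grow, and 46 h later 5 IU of hCG, human chorionic gonadotropin, which triggers ovulation in place of luteinising hormone. The 6 h group holds 2 libraries of cells collected 6 h after hCG, and the 0 h group holds 2 libraries labelled as collected at 0 h. Since the treatment text names collection at 6 h alone, for both groups, the titles and the time-point label define the 0 h group. An input pooled within each time point entered through the peak calls alone. The labels do not say whether the libraries of a group came from separate animals, so their spread may be technical.

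RUNX1 is a transcription factor that binds DNA through its Runt domain, together with its partner CBFB, at a short core sequence. In granulosa cells, the somatic cells around the oocyte, it is induced by the ovulatory surge, and it is known as a regulator of ovulatory genes. The start of a gene is where RNA polymerase is loaded, and many starts lie in stretches rich in the dinucleotide CpG.

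The sequences at the summits of the strongest promoter members are shown first, because the later results turn on whether the RUNX core lies there. They are the 5 highest-ranking members with the summit upstream of the start, at genes whose promoter entry begins at the annotated gene start. Rank is by the mean percentile of the fold enrichment over both 6 h libraries. Each window holds up to 60 bases on either side of the summit and stops before the start. The sequences are from RefSeq (GRCm38.p6), written along the strand of the gene, and capitals mark matches of the RUNX core, searched as TGTGGT or TGCGGT on both strands (ACCACA and ACCGCA on the other strand).
F2r: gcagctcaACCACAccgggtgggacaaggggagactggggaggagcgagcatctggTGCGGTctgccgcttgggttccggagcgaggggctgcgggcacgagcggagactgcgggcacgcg
Glcci1: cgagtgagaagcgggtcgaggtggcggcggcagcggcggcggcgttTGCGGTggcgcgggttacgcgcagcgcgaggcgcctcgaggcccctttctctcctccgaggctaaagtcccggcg
Gng12: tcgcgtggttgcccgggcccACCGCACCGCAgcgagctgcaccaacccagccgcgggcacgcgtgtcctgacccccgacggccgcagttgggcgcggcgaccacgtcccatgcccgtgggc
Zfp367: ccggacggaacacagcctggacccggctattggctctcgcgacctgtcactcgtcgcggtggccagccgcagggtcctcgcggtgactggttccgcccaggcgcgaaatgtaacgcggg
Dnajc3: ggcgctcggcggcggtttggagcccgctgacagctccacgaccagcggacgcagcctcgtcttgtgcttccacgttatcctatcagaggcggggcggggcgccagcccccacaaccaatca
The window of F2r lies at chr13:95618532-95618652 on the minus strand and holds 2 matches, the nearer centred 1.5 bp from the summit. That of Glcci1 lies at chr6:8509413-8509533 on the plus strand, and its match is centred 11.5 bp from the summit. That of Gng12, which encodes a G protein gamma subunit, lies at chr6:66896221-66896341 on the plus strand. Its 2 matches overlap and the nearer is centred 32.5 bp from the summit. The windows of Zfp367, a zinc finger gene, at chr13:64153200-64153318 on the minus strand and of Dnajc3, a chaperone gene, at chr14:118937713-118937833 on the plus strand hold no match. Of the 5 windows, 3 therefore hold these letters and the other two do not, and of the next 55 such windows by rank, 11 hold them. Gng12 had fold enrichments of 24.9 and 42.9 in 6 h replicates 1 and 2, Zfp367 of 28.9 and 28.1, and Dnajc3 of 22.5 and 30.7. These are the authors' values, the ChIP signal over the local background at the summit, each on the scale of its own list.

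The members were sites of middling strength among the 6 h peaks. Their median fold was 8.18 in replicate 1 and 11.5 in replicate 2, which placed the median member at percentile 45.4 and 55.9 of all peaks of those lists. Their folds ranged from 1.64 to 54.3 in replicate 1 and from 2.14 to 74.5 in replicate 2. Only 145 members (2.77%) lay above percentile 90 in both lists and 3 above percentile 99, and 191 lay below percentile 10 in both. The other classes of 6 h region show where this stands. The 995 6 h-only regions with the ends of 2 or more coding genes in reach were similar, with median percentiles of 41.4 and 52.1. Of them, 21 (2.11%) lay above percentile 90 in both lists. The 200 single-end regions that overlapped a replicated 0 h region had median percentiles of 91.0 and 91.7, and 97 of them (48.5%) lay above percentile 90 in both lists. The 952 that overlapped an unreplicated 0 h peak had median percentiles of 80.3 and 82.5. The 4928 regions that were 6 h-only but lay inside genes, over 1 kb from any end, had 48.2 and 68.8, so that the difference from the members was larger in replicate 2.

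The median member was 631 bp wide, with quartiles of 456 and 867 bp and a range from 201 to 1993 bp. The replicates placed the summits of a member a median of 41 bp apart, and within 100 bp of each other in 77.7% of members. This spacing was 45 bp in the 6 h-only regions at 2 or more coding gene ends and 30 bp in those inside genes. It was 28 bp in single-end regions overlapping unreplicated 0 h peaks and 22 bp in those overlapping replicated 0 h regions. Across the members, the folds of the replicates correlated with a Spearman coefficient of 0.738 (n = 5242 regions, from the same pair of libraries).

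The recovered read pileup at the summit describes how many reads each member rested on. It had a median of 46 reads in replicate 1 (range 19 to 262) and of 53 in replicate 2 (range 18 to 247). The lowest pileup of a called 0 h peak was 20 in replicate 1 and 19 in replicate 2. In both 6 h libraries, 5239 members (99.9%) had at least 20 reads. The lowest pileup of any called 6 h peak was 19 in replicate 1 and 17 in replicate 2. That count is therefore largely set by the peak calls, and nothing is read from it. The recovered genome-wide background was 2.77 and 2.65 reads at 0 h and 2.76 and 2.13 at 6 h, while the lists held 948 and 3135 peaks at 0 h and 18761 and 28671 at 6 h. The 0 h signal at the members, below the called peaks, was not analysed here.

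At the limits of the rule, the widest members were at Clcf1 (1993 bp, folds 10.3 and 9.10) and Tanc1 (1992 bp, folds 16.1 and 29.0). Just past the width limit lay regions at Junb (2007 bp, folds 12.5 and 13.1) and Ier2 (2020 bp, folds 21.0 and 28.4), both immediate early genes. The members farthest from a gene end were at Clasp1 (996 bp, folds 7.24 and 7.55) and Klf2 (995 bp, folds 9.85 and 21.2). Just beyond lay regions at Dact2 (1001 bp, folds 5.17 and 9.20) and Car15 (1001 bp, folds 8.99 and 12.2).

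The highest-ranking member was at F2r, which encodes the thrombin receptor PAR-1 (chr13:95617739-95618837, summit 126 bp upstream of the start). Its fold was 54.3 in replicate 1 and 74.5 in replicate 2, with pileups of 219 and 240 reads. The next was at Glcci1, named as a glucocorticoid-induced transcript (chr6:8509073-8509851, summit 127 bp upstream), with folds of 40.6 and 56.2. Sav1, which encodes a scaffold of the Hippo pathway, followed with folds of 38.2 and 53.7 at a summit 795 bp inside the gene (chr12:69986363-69987574). Both replicates placed these 3 among the highest 1% of their lists.

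The signalling genes among the highest 15 also held Rasal1, a Ras GTPase-activating protein (folds 32.5 and 57.7), and Rragd, a Rag GTPase that relays amino acid levels to mTORC1 (33.7 and 50.2). Arhgap29, a GTPase-activating protein, had 29.7 and 40.8, and Bmper, which encodes a secreted protein that binds bone morphogenetic proteins, had 24.5 and 47.1. The ubiquitin genes were Rnf157 (38.7 and 46.8), Rnf149 (25.5 and 47.5) and Ube2n, a ubiquitin-conjugating enzyme (24.9 and 48.5). The enzymes were Naa25, a subunit of an N-terminal acetyltransferase (32.2 and 48.6) and Gnpnat1, an enzyme of UDP-GlcNAc synthesis (29.8 and 45.2). Fa2h, the fatty acid 2-hydroxylase, had 26.1 and 42.8. The homeobox gene Dlx2 had 30.4 and 52.8, at its finish and not its start. All 14 of these had a higher fold in replicate 2, whose list has the lower background. No 0 h summit lay inside these genes except Bmper, with 1.

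**Figure D1:**
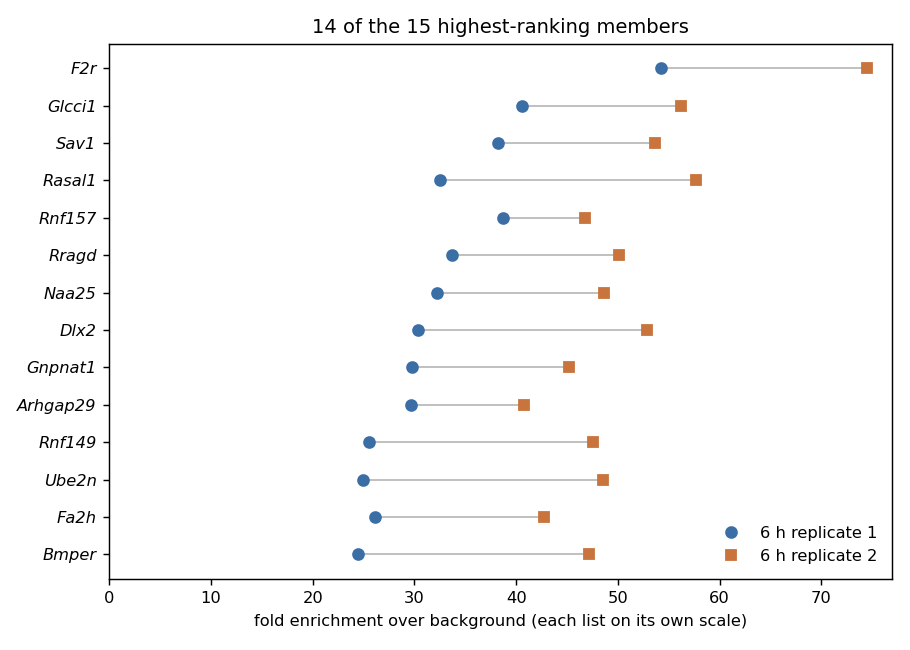
Fold enrichment over background of 14 of the 15 highest-ranking members in 6 h replicate 1 (circles) and 6 h replicate 2 (squares), each on the scale of its own list. F2r stands first in both libraries, at 54.3 and 74.5, and in every row the square lies to the right of the circle.

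The members lay at gene starts far more often than at gene finishes. The gene table has no strand, so start and finish were told apart through the RefSeq promoter table, which gave a strand for 4171 members. Of these, 4016 (96.3%, 95% CI 95.7 to 96.8) lay nearest the start and 155 (3.72%) nearest the finish. Intervals are exact Clopper-Pearson intervals and cover counting error only. The share nearest the start was similar in single-end regions overlapping unreplicated 0 h peaks (97.2%) and replicated 0 h regions (93.9%). Members at a finish were narrower, with a median of 494 bp against 639 bp, and their median folds were 8.15 and 12.4 against 8.19 and 11.5.

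Measured from the outermost annotated start of each gene, the summits sat mostly just inside the gene. A summit at another start farther inside counts as inside, and the promoter table holds 21263 entries for 17492 coding genes. The median summit lay 96 bp inside, 2805 of the 4016 start members (69.8%, 95% CI 68.4 to 71.3) had the summit at or downstream of the start, and 1211 lay upstream. The summit was within 100 bp of the start in 35.2% and within 250 bp in 64.8%, and the region covered the start itself in 71.5%. Counted over all members, 30.5% (95% CI 29.3 to 31.8) had the summit outside the gene. The single-end regions with replicated 0 h overlap were centred closer to the start, with a median of 5 bp and 46.5% of summits outside the gene, and those with unreplicated overlap lay between, at 48 bp and 38.6%. Each class was placed by the same distance limit, which all of them share.

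**Figure D2:**
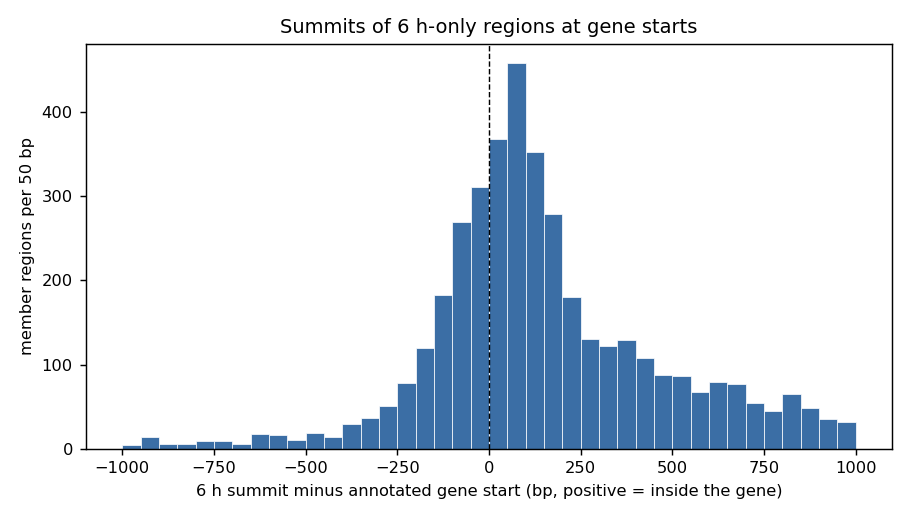
Distance of the 6 h summit from the annotated start of the gene for the 4016 start members, in bins of 50 bp, with positive values inside the gene and the start as a dashed line. The summits crowd around the start, with the median at 96 bp and a longer tail into the gene.

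Whether the libraries differed in how often their peaks lay at single gene ends was asked over all peaks of each list. Replicates 1 and 2 had shares of 25.7% and 41.1% at 0 h, with a group mean of 33.4% ± 10.9 (SD, n = 2). Shares at 6 h were 38.2% and 30.5%, with a group mean of 34.3% ± 5.44 (SD, n = 2). The groups overlapped. The means differed by 0.895 percentage points (p = 1 by a two-sided exact permutation test over the 4 libraries), and 2 libraries against 2 cannot give a p below 0.333. Leaving out 0 h replicate 1 turned the difference to -6.81, and leaving out 6 h replicate 1 turned it to -2.95.

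Most members were far from any 0 h peak. The nearest 0 h summit lay a median of 143142 bp away, 101 members (1.93%) had one within 1000 bp and 398 (7.59%) within 10000 bp. Of the 4800 member genes, 289 (6.02%) had a 0 h summit inside the gene, and of all 21900 coding genes 1824 (8.33%) did. The rule keeps out regions with a 0 h peak, so these distances and counts are partly set by it and nothing is read from them.

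Of all protein-coding genes, 21.9% had a member. This share was lower on chromosome X, at 109 of 966 genes (11.3%, 95% CI 9.36 to 13.4), and none of 256 genes on chromosome Y, which granulosa cells lack, had one. Of all replicated 6 h regions, 11 were placed on chromosome Y by the lists. Among the autosomes, the share ran from 14.9% on chromosome 7 and 18.3% on chromosome 14 to 26.9% on chromosome 5. The median member gene was 27134 bp long, against 17146 bp for all coding genes.

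Some genes carried several members. There were 403 genes with 2, 18 with 3 and 1 with 4. The gene with 4 was Ccdc97, with 3 regions around its finish and 1 at 57 bp inside its start. The folds at its finish were 14.7 and 30.4, 4.17 and 6.41, and 13.4 and 34.3, and at its start 12.2 and 17.6. At Dyrk1a, a protein kinase gene, the 3 regions lay 880 and 355 bp upstream of and 896 bp inside the start, with folds of 11.4 and 21.4, 19.5 and 21.7, and 9.25 and 10.6. At Klf2, a zinc finger transcription factor gene, 1 lay 132 bp upstream of the start (folds 13.7 and 20.8) and the other two near the finish (9.78 and 15.1, and 9.85 and 21.2). Pbx3, a homeobox gene, had folds of 20.2 and 37.3, 10.6 and 8.90, and 15.2 and 18.6 at its 3 regions. At Sik1, a cyclic AMP-induced kinase gene, they were 17.8 and 16.3, 7.25 and 10.4, and 3.76 and 4.38. Ube2n, besides the high member near its finish, had 2 near its start, with folds of 10.6 and 19.1 and of 10.4 and 9.89. Regions at 1 gene share that gene and are not independent of each other. The other genes with 3 members were Dlg5, E2f8, Fam120a, Fst, Ggnbp2, Gpbp1, Irx5, Rap1gds1, Rfx7, Rnf217, Slc30a1, Smarcc2 and Zbtb10.

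Among 20 genes of the ovulatory response, 6 had a member (30%, 95% CI 11.9 to 54.3, against 21.9% of all coding genes). Any replicated 6 h region lay within 1 kb of an end in 9 of the 20, against 37.2% of all coding genes. The other 3, Fosl2, Runx1 and Runx2, had regions that overlapped 0 h peaks. No 6 h region lay within 1 kb of an end of Areg, Btc, Ereg, Edn2, Has2, Il6, Pgr, Pparg, Ptgs2, Ptx3 or Sult1e1. With 20 genes the interval is wide and includes the background.

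The member at Tnfaip6, which encodes a protein that links hyaluronan in the expanding cumulus, had folds of 15.5 and 17.3 with its summit 53 bp upstream of the start. A second member near its finish had 10.5 and 18.03. Zbtb16, which encodes a zinc finger repressor, had 11.9 and 24.6 at a summit 15 bp from the gene end, and 6 summits of 0 h peaks lay elsewhere inside this gene. Cebpb, which encodes a transcription factor needed for luteinisation, had members of 14.6 and 11.0 and of 6.31 and 6.38, both nearer its finish than its start, and the nearest 0 h summit was 1994 bp from the first. Adamts1, which encodes a protease of the ovulatory matrix, had 8.88 and 12.4 with the summit 102 bp upstream, and 9.04 and 8.53 at 937 bp inside. Cited4, a transcriptional coactivator gene, had 5.83 and 10.1, and Vegfa, the angiogenic growth factor gene, had 6.93 and 6.73 with its summit 18 bp upstream. None of these reached the folds of the first 15.

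Among 20 genes of follicular growth and granulosa identity, 6 had a member (30%, 95% CI 11.9 to 54.3), an interval that includes the 21.9% of all coding genes. Any replicated 6 h region lay at an end of 7 of the 20 (35%), against 37.2% of all coding genes. The strongest were at Fst, which encodes the activin-binding protein follistatin, with 3 members of 25.5 and 33.2, 12.2 and 14.0, and 9.57 and 12.8. A 0 h summit lay 1491 bp from the first of them. Foxl2, a granulosa identity transcription factor gene, had 13.0 and 10.7 at 306 bp inside its start. Wt1, a transcription factor gene of the developing gonad, had members of 7.45 and 14.2 and of 5.74 and 16.9, with 2 summits of 0 h peaks elsewhere inside the gene and the nearest 0 h summit 3838 bp from the first. Esr2, the estrogen receptor beta gene, had 9.57 and 10.2 with its summit 21 bp upstream. Inha, the inhibin alpha subunit gene, had 7.94 and 9.42, with 1 summit of a 0 h peak inside the gene and the nearest 0 h summit 2535 bp away. Amh, the anti-Mullerian hormone gene, had 5.95 and 10.7. The remaining gene with a region, Hsd17b1, had a 6 h-only region in reach of 2 or more coding genes. No 6 h region lay within 1 kb of an end of Fshr, Lhcgr, Cyp19a1, Cyp11a1, Star or Nr5a2. The same held for Nr5a1, Gata4, Amhr2, Inhba, Hsd3b1, Ccnd2 and Igf1.

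At 4 of these genes the summit lay upstream of the start within the promoter table, and the sequences are shown to set the listed genes beside the strongest members. Capitals again mark the RUNX core.
Tnfaip6: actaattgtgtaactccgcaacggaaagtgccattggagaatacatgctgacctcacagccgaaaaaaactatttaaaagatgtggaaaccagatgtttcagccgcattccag
Adamts1: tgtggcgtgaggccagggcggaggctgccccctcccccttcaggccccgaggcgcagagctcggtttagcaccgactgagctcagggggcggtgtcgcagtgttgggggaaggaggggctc
Esr2: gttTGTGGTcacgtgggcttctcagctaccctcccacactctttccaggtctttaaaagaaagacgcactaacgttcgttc
Vegfa: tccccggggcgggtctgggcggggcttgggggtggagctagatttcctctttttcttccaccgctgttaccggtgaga
The Tnfaip6 window lies at chr2:52038000-52038112 on the plus strand and that of Adamts1 at chr16:85803155-85803275 on the minus strand. The Esr2 window lies at chr12:76177260-76177340 on the minus strand and that of Vegfa at chr17:46032378-46032455 on the minus strand. Of the 4, the window of Esr2 alone holds the core, centred 54.5 bp from the summit.

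Genes that mark the cell types a granulosa preparation can hold were checked. Of 5 granulosa markers, 3 had a member (95% CI 14.7% to 94.7%), Foxl2, Inha and Amh. None of 4 theca, 4 endothelial or 4 oocyte markers did (95% CI 0% to 60.2% for each), and Spi1 alone did of 5 leukocyte markers (95% CI 0.505% to 71.6%), with folds of 7.83 and 14.0. Each of these intervals includes the background of 21.9%. A binding site does not show that a gene is expressed, and the make-up of the cells was not tested.

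The share of genes with a member differed widely between gene families, from 0 to 54.8%. The background is 21.9% of all coding genes, and these counts describe the lists with no test. Most lists were made from gene symbols and hold some genes that share a name without the function, such as the kinases Eif2ak3 and Eif2ak4 among the initiation factors and Cdc42 among the cell cycle regulators. Of 31 ubiquitin-conjugating enzymes of the Ube2 family, 17 had a member (54.8%, 95% CI 36.0 to 72.7), the highest share. Cytosolic ribosomal proteins followed with 41 of 84 (48.8%, 95% CI 37.7 to 59.96). Cell cycle regulators had 32 of 69 (46.4%), and subunits of Mediator and RNA polymerase II 19 of 43 (44.2%). Genes named as translation initiation factors had 24 of 56 (42.9%), splicing factors 19 of 45 (42.2%), the proteasome 20 of 48 (41.7%) and vesicle traffic genes 28 of 70 (40%). Chaperones had 27 of 81 (33.3%, 95% CI 23.2 to 44.7). The intervals of these 9 lists lie above 21.9%.

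In other lists the interval includes 21.9%, and several of these lists are small. Nucleoporins had 8 of 20 (40%), DNA replication genes 9 of 25 (36.0%), peroxisome biogenesis genes 6 of 17 (35.3%) and histone-modifying enzymes 14 of 44 (31.8%). Aminoacyl-tRNA synthetases had 11 of 37 (29.7%), oxidative phosphorylation genes 23 of 82 (28.0%), mitochondrial import genes 7 of 25 (28.0%) and autophagy genes 5 of 18 (27.8%). Zinc finger genes named Zfp had 101 of 397 (25.4%) and solute carriers 83 of 383 (21.7%). Some replicated 6 h region lay at an end of 16 of 20 nucleoporin genes (80%), 15 of 18 autophagy genes (83.3%) and 34 of 44 genes of histone-modifying enzymes (77.3%), against 37.2% of all coding genes.

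At the low end, olfactory receptors had 3 of 1106 genes (0.271%, 95% CI 0.0560 to 0.791) and vomeronasal receptors 0 of 353, which allows a share of up to 1.04%. Keratins had 2 of 49 (4.08%, 95% CI 0.498 to 14.0) and collagens 3 of 44 (6.82%, 95% CI 1.43 to 18.7).

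The mitochondrial ribosomal proteins show how the requirement of a single coding gene bears on these counts. They had a member at 16 of 78 genes (20.5%, 95% CI 12.2 to 31.2), yet 52 of 78 (66.7%) had some replicated 6 h region at an end, against 37.2% of all coding genes. Of the genes without a member, 25 had a 6 h-only region in reach of 2 or more coding genes, and a further 11 had one that overlapped a 0 h peak. For the cytosolic ribosomal proteins, 66 of 84 (78.6%) had some region, and 13 and 12 genes fell to those same classes. Over all coding genes, 3355 had a 6 h region but no member, of which 1789 had a 6 h-only region between coding genes and 1533 others one that overlapped a 0 h peak.

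**Figure D3:**
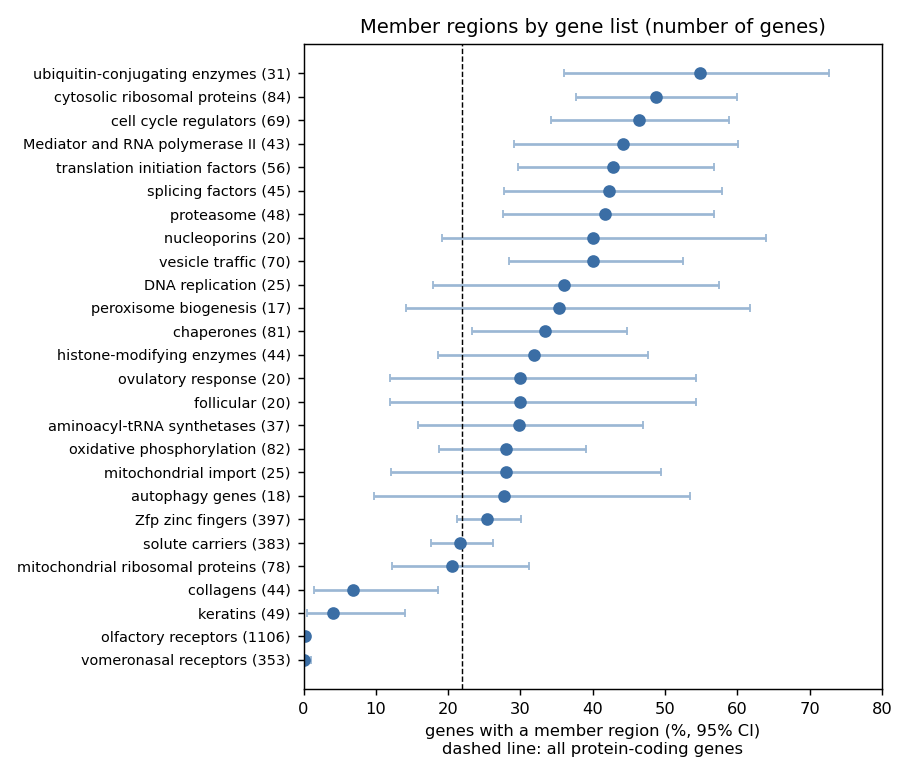
Share of the genes of each list that had a member, with exact 95% confidence intervals, for lists of 17 genes or more, the number of genes in brackets. The dashed line marks the 21.9% of all coding genes. Ubiquitin-conjugating enzymes stand highest at 54.8%, and olfactory and vomeronasal receptors lie at or near 0.

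The highest member of each list is given here, and it does not describe the other members of its list. Median fold percentiles of the lists ran from 20.2 (peroxisome biogenesis) to 67.6 (translation initiation factors) in replicate 1. In replicate 2 they ran from 24.6 (autophagy genes) to 88.7 (collagens, with 3 member genes). Ndufs7, a subunit of respiratory complex I, had folds of 27.0 and 30.6 and Srsf6, a splicing factor gene, had 27.1 and 28.7. Med14 of the Mediator complex had 22.6 and 35.1, Psmd7 of the proteasome 22.7 and 32.9, and Sec62, a translocon gene, 22.3 and 29.4. Zfp703 had 24.4 and 33.2 and Slc12a2, the sodium-potassium-chloride cotransporter gene, had 23.9 and 39.9. Cdk19, the kinase of the Mediator module, had 18.3 and 31.9, with its summit 1 bp from the gene end, and Eif4g1, the scaffold of translation initiation, had 20.5 and 25.8. Nup153 had 18.7 and 23.5, Kdm3b, a histone demethylase gene, 17.5 and 18.2, and Nars 15.7 and 18.2. Lower lay Rpl22l1 (13.2 and 21.8), Mrpl9 (10.1 and 19.6), Tomm70a (10.8 and 17.5), Pold3 (10.4 and 13.1) and Pex13 (14.8 and 16.5). At Col5a1 they were 13.4 and 23.0, at Atg14 7.57 and 8.46, at Krt73 8.07 and 14.6, and at Olfr1033 8.42 and 22.4. Every one of these named members had the higher fold in replicate 2, as did the 14 above.

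What the promoters of member genes share was read from the RefSeq windows of 250 bases before to 50 after the start (300 bases). Of the member genes, 3820 were in the table, and 3716 of these had a member nearest the start. Their promoters had a median GC content of 63.3% and 23 CpG dinucleotides, against 56.3% and 13 for all 17492 coding promoters. In 10883 promoters the gene had no replicated 6 h region within 1 kb of an end, and the medians were 51.3% and 5. These are called promoters with no 6 h region below, though they may hold a peak of 1 library. The ratio of observed to expected CpG was at least 0.6 in 83.2% of member promoters, 48.4% of all and 27.1% of those with no 6 h region. The 828 promoters of single-end regions that overlapped a 0 h peak stood close to the members, with a median GC of 62.7% and 25 CpG dinucleotides.

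Counted over the whole promoter window, the RUNX core had a similar share in member promoters and in promoters in general. It was in 20.6% of them (95% CI 19.3 to 22.0), in 21.6% of all coding promoters and in 21.1% of those with no 6 h region, but in 31.0% (95% CI 27.9 to 34.3) of those at regions overlapping a 0 h peak. The 2 spellings of the core went opposite ways. TGTGGT was in 11.2% of member promoters against 15.1% of all, and TGCGGT, which holds a CpG, in 10.3% against 7.38%. Within bands of GC content, the members' share was 21.3% against 22.5% of all promoters below 50% GC, 24.4% against 23.5% from 50 to 60%, 21.0% against 21.1% from 60 to 70%, and 15.2% against 15.7% from 70%. All promoters include those of the members. Promoters with no 6 h region had the core in 22.6%, 22.3%, 17.6% and 13.4% over the same bands. The members' share was lower in the first band and higher in the other 3, but the 95% intervals overlapped in every band. Among the member promoters, it was in 23.3% of the 929 of highest fold percentile and in 16.5% of the 929 of lowest.

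Motifs of several other factors differed by more points between member promoters and all coding promoters, among them those of SP/KLF, ETS and GATA factors. GGGCGG, bound by SP and KLF factors, was in 73.4% of member promoters against 46.3% of all, and CCGGAA, bound by ETS factors, in 27.2% against 19.1%. CACGTG, the E-box, was in 11.5% against 7.91%, GCATGCGC of NRF1 in 6.40% against 3.61%, and TGACGTCA of CREB-type factors in 3.36% against 2.33%. The promoters of regions that overlapped a 0 h peak stood close to the members for several motifs. They had GGGCGG in 74.8%, CCGGAA in 29.5%, AGATAA in 3.99% and TATAAA in 5.68%. TGACGTCA was more frequent there, in 7.37% (interval 5.68 to 9.36) against 3.36% (interval 2.81 to 3.99) of member promoters. AAGGTCA, bound by NR5A receptors, was in 3.86% there against 2.23% of member promoters. The other promoters with any replicated 6 h region had GGGCGG in 67.5%, CCGGAA in 35.5% and TGACGTCA in 5.22%. CCAAT of NF-Y was at 40.1% in member promoters against 39.2% of all. Lower among members were AGATAA of GATA factors (5.30% against 9.94%), TATAAA (6.54% against 13.3%), TGANTCA of AP-1 (3.98% against 7.03%) and AAGGTCA of NR5A receptors (2.23% against 4.06%). All motifs were searched on both strands. AAGATGG of YY1 was at 7.37% against 6.35%, and GGAATG of TEAD factors, the C/EBP motif TTGCNNAA and GTAAACA of forkhead factors were lower among members (11.2% against 13.5%, 7.24% against 10.1% and 2.18% against 2.93%). The base composition given above differs between these sets of promoters as well, and its part in these shares was not tested. A match is a description of the letters, not a binding site.

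Close to the summit, the RUNX core was denser. The summit lay inside the 300-base window in 1633 members, and 205 of them (12.6%, 95% CI 11.0 to 14.3) had a core centred within 50 bp of it. Matches fell from 1.56 per 1000 positions within 25 bp of the summit to 1.42 at 25 to 50 bp, 0.889 at 50 to 75 bp and 0.602 at 150 to 200 bp. The spelling TGCGGT went from 0.918 to 0.181 per 1000 positions between the first and last of these distances, and TGTGGT from 0.646 to 0.422. The E-box went from 0.905 at the summit to 0.271 at the far end. ETS was at 1.69, 2.04, 1.56 and 1.87 over the first 100 bp, in steps of 25 bp, and at 1.28 and 0.813 beyond. NF-Y was at 2.70 at the summit, highest at 3.20 from 50 to 75 bp, and at 1.91 at the far end, and SP/KLF at 6.58, 7.22 from 25 to 50 bp, and 5.25. Others were higher at the far end, TEAD at 0.233 in the first and 0.527 in the last of these distances, C/EBP at 0.234 and 0.440, GATA at 0.0775 and 0.181, and TATA at 0.0775 and 0.166. Positions far from a summit lie more often at the edges of the window, and distance from the start moves with distance from the summit. Its part in these rates was not tested.

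**Figure D4:**
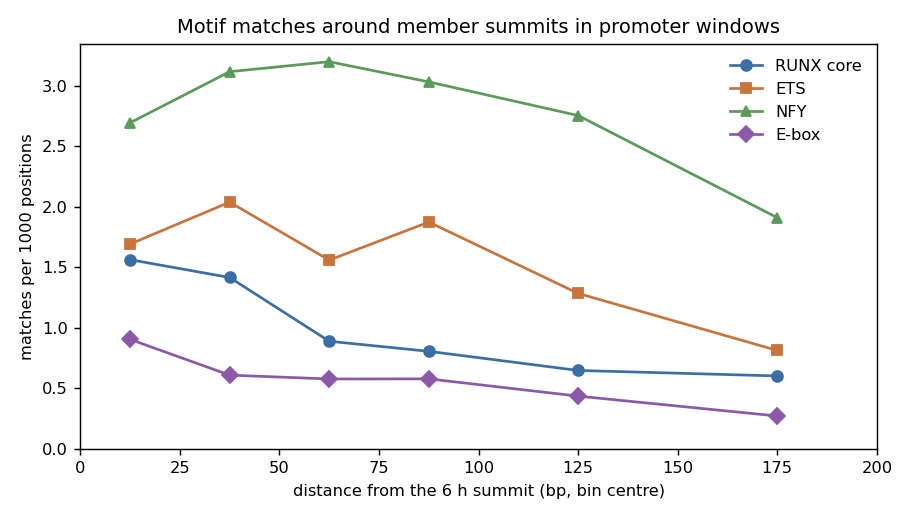
Matches per 1000 positions of the RUNX core, ETS, NF-Y (NFY) and E-box motifs against the distance from the summit, for the 1633 members with the summit inside the promoter window. The RUNX core goes from 1.56 in the first 25 bp to 0.602 at 150 to 200 bp, with its largest step between the second and the third bins, and the other 3 motifs plotted are also lower in the last bin than in the first.

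The share of members with a core near the summit was higher at each step of fold. Among the 1633 members with the summit in the window, in 4 groups ordered by fold percentile, it was 5.87% (95% CI 3.80 to 8.61) of the lowest 409 members, 10.05% of the next 408, 14.5% of the 408 above those and 19.9% (95% CI 16.1 to 24.1) of the highest 408. The median folds of the 205 members with a core within 50 bp were 9.60 and 14.4, against 8.07 and 11.8 for the 1428 without one. GC content moved with fold as well, with a median of 65.3% in the promoters of the highest 929 genes by fold percentile and 61.3% in the lowest 929. Most members of every group had neither spelling within 50 bp of the summit.

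Single-end regions that overlapped a 0 h peak held the core more often, again counted where the summit lay inside the 300-base window. It was within 50 bp of the summit in 118 of 465 such regions (25.4%, 95% CI 21.5 to 29.6), against 12.6% of the 1633 members. Set beside the highest 408 of these members, whose group starts at percentile 69.7, the 327 such regions at or above that percentile had it in 31.5% (95% CI 26.5 to 36.8) against 19.9%. They were still stronger sites, with a median percentile of 89.8 against 81.0, so that strength moves with this difference. The CREB-type motif TGACGTCA was also more frequent there, within 50 bp of the summit in 4.30% (95% CI 2.65 to 6.56) of the regions overlapping a 0 h peak and 1.78% (95% CI 1.19 to 2.54) of the members. ETS matches were at 13.8% and 14.5%, SP/KLF matches at 44.3% and 45.1%, and NF-Y matches at 24.9% and 21.8%.

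**Figure D5:**
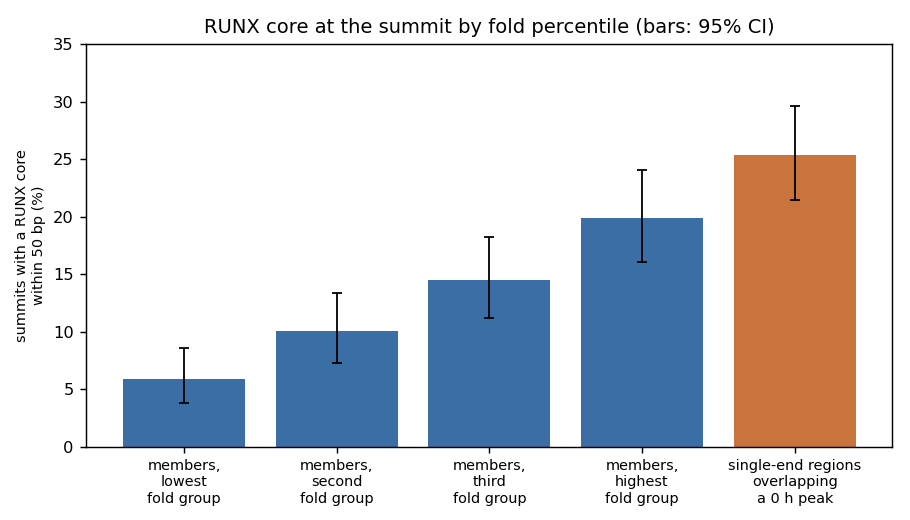
Share of summits with a RUNX core within 50 bp, for members in 4 groups by fold percentile (409, 408, 408 and 408 members) and for the 465 single-end regions that overlap a 0 h peak, in both cases with the summit inside the promoter window, with exact 95% confidence intervals. The share goes from 5.87% in the lowest group to 19.9% in the highest, and stands at 25.4% in the regions with a 0 h peak.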

How the data were processed

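The deposited files are MACS2 peak lists, 1 per ChIP library. Bowtie2 2.2.5, MACS2 and mm10 are named in the submitters' processing notes, and the version and settings of MACS2 are not given in the sources used here. The deposited lists give each peak's interval and summit position, the fold enrichment (a ratio) and p- and q-values on the −log10 scale, all as the authors made them. The score column the authors deposited was not used.

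Merging, overlaps, gene ends and motifs were computed in Python 3.11.15 with numpy 2.4.6, pandas 2.3.3 and scipy 1.17.1, and the functions were tested on simulated data. Positions were counted from 1. Gene ends and promoters are RefSeq (GRCm38.p6), with no genome sequence used. Pileup and background were solved from each fold and p-value, within 0.005 of the −log10 p, for 100% of peaks. The share of peaks at gene ends was tested over libraries by exact permutation.

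Named were the 15 members of highest mean fold percentile, members at the listed ovulatory and follicular genes, the highest member of each list, the members at each limit and genes with several members. Of the first 15, 1 is not reported here. Gng12 and Zfp367 are named for the sequences shown, chosen after their values were seen. The members, lists and rules were chosen with earlier results of these data known. Alternatives changed the distances, the q-value limit (−log10 q of at least 20), the gene types and the libraries.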

Additional observations from a re-analysis of the deposited data

How the results depend on the processing

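The number of members stayed within 1.5 times of 5242 under all 11 alternatives. It was 4071 with the replicate summits within 100 bp, 4156 with a −log10 q of at least 20, 4512 and 5802 with gene ends within 500 bp and 2000 bp, and 5253 to 7487 when 1 library was left out. The median fold percentile stayed between 43.0 and 54.1. The difference between time points in the share of peaks at single gene ends kept no direction. It was 0.895 points as reported, 7.23 with a −log10 q of at least 20, -0.385 with gene ends within 500 bp, and between -6.81 (without 0 h replicate 1) and 8.60 (without 0 h replicate 2) when 1 library was left out, with -2.95 without 6 h replicate 1. The cause was not tested. With a replicate block it was 0.895 (exact permutation p = 1). The deviations of same-numbered libraries had a Pearson r of -0.151 over 795 regions. A crossed replicate block, chosen after seeing the data, also gave 0.895, and made no call. The lowest pileup of a called peak was 20 and 19 reads in the 0 h lists, and signal below the called peaks was not analysed here.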
